A study of Mus musculus with 16 samples.

Results

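The 9 vascular and blood progenitor genes described here are the Vegf receptors Kdr and Flt1, the co-receptors Nrp1 and Nrp2, the transcription regulators Etv2, Tal1, Lmo2 and Gata1, and the cell adhesion gene Pecam1. They are 9 of the 19938 genes that could be named on the Affymetrix Mouse Gene ST 1.0 array, and each was read from its only probe set with a single gene symbol. All 9 were among the 32000 probe sets of highest mean that entered the tests. The cells were TGFP/+; Foxa2tagRFP/+ mouse ES cells, in which 1 copy of T and 1 copy of Foxa2 carried a fluorescent reporter in every group. The GFP insertion disrupts its copy of T, so that all groups had 1 intact copy. The labels give the cell line as E14.1 on a 129/Ola background, whereas the methods of the study name another parental line, G4, and the background is therefore not settled. Undifferentiated cells (ES, day 0) grew on mitomycin-treated fibroblast feeders and were not sorted. For differentiation, cells were moved to a feeder layer that makes Wnt3a. In the endoderm medium activin A was at 12 ng/ml, and Foxa2+ T- cells were sorted by their surface CD24 as endoderm progenitors (DEP, low CD24) or definitive endoderm (DE, high CD24) at days 2 and 4. The mesoderm medium held Bmp4 at 7.5 ng/ml beside activin A at 3 ng/ml, and Foxa2- T+ cells were sorted as mesoderm progenitors (MP, low CD24) at days 2 and 4 or as mesoderm (MES, no CD24) at day 4. Each of the 8 groups had 2 arrays, 16 in all, labelled as biological replicates, and the p-values measure the spread between such arrays. Lineage and medium cannot be told apart in these groups, and DE and MES also differ in the CD24 gate.

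In the gastrulating embryo, the first blood and vessel cells arise from Bmp4-dependent posterior mesoderm through progenitors that carry Kdr. Etv2, an Ets factor, is needed to set up both fates, and Tal1, Lmo2 and Gata1 are parts of a DNA-binding complex of early blood cells, in which Lmo2 is the bridging subunit. Kdr is the main signalling receptor for Vegfa, Flt1 binds Vegfa tightly and is known mainly as a decoy, and the neuropilins Nrp1 and Nrp2 bind both Vegf family members and class 3 semaphorins. Pecam1 is a surface protein of endothelium and is also made by mouse ES cells.

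The genes used for sorting were read first. Foxa2 was between 10.00 and 11.41 on the log2 scale on the 8 arrays of DEP and DE and between 7.32 and 8.26 on the other 8 arrays. Cd24a was lowest in MES (11.04 and 11.12) and highest in DE (13.16 to 13.45). The members are also read beside markers of cells that the gates or cultures could hold. The mean of 13 fibroblast genes was 10.11 and 9.77 on the ES arrays against 7.10 to 7.62 on the sorted arrays, and 12 of the 13 were lower in MP at day 2 than in ES. The 2 DE arrays of day 2 had a replicate correlation of 0.987 across probe sets, the lowest of the 8 groups (the highest was 0.994). Which of the 2 deviated cannot be told from this correlation. The second had a fibroblast mean of 7.62 against 7.17 on the first (7.21 and 7.17 in DE at day 4). Its mean of 19 lateral and extraembryonic mesoderm genes was 8.18 against 7.78 (8.14 and 8.15 in DE at day 4). Its mean of 8 mesoderm markers was 8.56 against 8.68 (8.39 and 8.44 in DE at day 4). Within a group, fewer cells that make a transcript and less of it per cell cannot be told apart.

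The promoters of 7 of the 9 members were matched in RefSeq (GRCm38.p6), not those of Lmo2 and Pecam1. The 250 bases before the start of 4 of them are printed 5′ to 3′ on the gene's strand. Kdr and Etv2 are shown because they were highest at the end of the mesoderm series, Flt1 and Gata1 because they were highest in DE. They lie at chr5:75978456-75978705 (minus strand) for Kdr, chr5:147726012-147726261 (minus strand) for Flt1, chr7:30635853-30636102 (minus strand) for Etv2 and chrX:7967911-7968160 (minus strand) for Gata1. Capitals mark each match to a motif that the members' own protein families bind: AGATAA or TGATAA for Gata factors, CGGAAG or AGGAAG for Ets factors and CAGATG or CAGCTG for a Tal1 E-box, all searched on both strands.
Kdr: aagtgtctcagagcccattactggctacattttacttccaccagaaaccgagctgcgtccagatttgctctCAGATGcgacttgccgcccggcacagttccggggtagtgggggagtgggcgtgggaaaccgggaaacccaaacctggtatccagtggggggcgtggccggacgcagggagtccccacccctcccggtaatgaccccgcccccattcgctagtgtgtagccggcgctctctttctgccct
Flt1: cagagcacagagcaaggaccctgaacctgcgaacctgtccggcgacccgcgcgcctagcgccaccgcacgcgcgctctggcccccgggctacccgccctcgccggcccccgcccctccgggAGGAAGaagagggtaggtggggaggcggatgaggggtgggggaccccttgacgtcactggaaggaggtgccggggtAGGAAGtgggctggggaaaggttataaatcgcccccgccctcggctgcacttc
Etv2: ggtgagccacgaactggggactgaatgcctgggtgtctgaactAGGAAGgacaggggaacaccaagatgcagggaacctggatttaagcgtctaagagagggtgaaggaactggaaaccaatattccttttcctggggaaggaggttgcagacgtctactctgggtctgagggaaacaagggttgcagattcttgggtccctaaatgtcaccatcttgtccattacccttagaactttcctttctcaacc
Gata1: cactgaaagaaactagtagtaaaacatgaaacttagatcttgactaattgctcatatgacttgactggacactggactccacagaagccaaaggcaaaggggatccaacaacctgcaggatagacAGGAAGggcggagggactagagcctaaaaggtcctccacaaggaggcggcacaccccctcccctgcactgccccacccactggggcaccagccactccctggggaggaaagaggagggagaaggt
The Ets letters stood 1 time each in the Etv2 and Gata1 windows and 2 times in the Flt1 window, and the Kdr window held 1 Tal1 E-box, 179 to 174 bases before the start. Among the members not printed, Nrp1 held AGGAAG 1 time, the first of the Tal1 windows held AGATAA 1 time on the opposite strand, and Nrp2 held none of the motifs. Such short motifs are common: of 32851 RefSeq windows of 250 bases, 39.2% held an Ets motif, 25.5% a Tal1 E-box and 16.6% a Gata motif. The forkhead motif TGTTTAC, which Foxa2 family proteins bind, was in 3.17% of all windows and in none of the members' windows. These matches describe the letters only.

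The Vegf receptors Kdr and Flt1 were high in opposite lineages. Kdr was at 6.36 and 6.43 on the log2 scale in ES, rose to 7.54 and 7.80 in MP at day 2 and 9.17 and 8.91 in MP at day 4, and reached 10.88 and 10.95 in MES. In DEP it was 6.39 and 6.61 at day 2 and 6.58 and 6.48 at day 4, and in DE at day 4 6.60 and 6.46. The 3 mesoderm groups stood apart from each other and above every other group, whereas DEP, DE at day 4 and ES followed each other within the spread between arrays. The exception was DE at day 2, where the first array read 6.55 and the second 7.48. Of the 2, the second had the higher means of fibroblast and of lateral and extraembryonic mesoderm genes and the lower mean of mesoderm markers. Its lateral and extraembryonic mesoderm mean was 8.18. The DE arrays of day 4 had 8.14 and 8.15, with Kdr at 6.60 and 6.46. The vascular cadherin Cdh5, looked up after the Kdr value was seen, was 6.98 and 7.77 on the DE arrays of day 2. The part of these lists in the values was not tested.

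Flt1 read 12.38 and 12.22 in DE at day 2 and 12.38 and 12.38 at day 4. In DEP it was 10.34 and 10.05 at day 2 and 10.65 and 10.68 at day 4. ES (8.40 and 8.19), MP at day 2 (8.23 and 8.01), MP at day 4 (8.62 and 8.24) and MES (8.37 and 8.34) overlapped or followed each other closely, so that the mesoderm groups did not stand above the undifferentiated cells. The order of Flt1 was therefore DE, then DEP, then the remaining groups.

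The neuropilins differed from each other. Nrp1 was highest in DE, with 10.73 and 11.56 at day 2 and 11.17 and 11.12 at day 4, followed by MES with 10.29 and 10.37. It was lowest at day 2 in DEP (6.62 and 6.35) and MP (7.34 and 7.0), and at day 4 read 8.61 and 8.48 in DEP and 9.60 and 9.43 in MP. The ES arrays lay between, at 9.36 and 8.68, with the higher value on the array of the higher fibroblast mean, a match over 2 arrays only. Nrp2 followed lineage instead. It was 10.67 and 10.73 in MES, 10.54 and 10.31 in MP at day 4, 9.43 and 9.38 in MP at day 2 and 9.03 and 9.15 in ES. In DEP it was 6.95 to 7.11 over both days. In DE it was 6.88 on the first and 7.80 on the second array of day 2, and 7.31 and 7.44 at day 4. Every DEP and DE array was below every ES and mesoderm array.

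Among the transcription regulators, Etv2 and Lmo2 were high late in mesoderm. Etv2 was 8.34 and 8.19 in ES and 8.24 and 8.14 in MP at day 2, which overlapped, then 9.88 and 10.04 in MP at day 4 and 11.10 and 11.19 in MES. All 8 arrays of DEP and DE lay between 7.68 and 7.98. Lmo2 was 8.65 and 8.68 in MP at day 4 and 8.85 and 9.24 in MES, against 7.42 to 7.89 over the 12 arrays of the other 6 groups. Its high values thus began at day 4, as did those of Etv2.

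Gata1, the erythroid Gata factor, was not high in mesoderm. It read 8.04 and 8.72 in DE at day 2 and 9.14 and 9.28 in DE at day 4, and 6.57 to 7.08 over the arrays of the other 6 groups. Every DE array was above every other array. Tal1, the helix-loop-helix factor of the complex, spanned only 7.59 to 8.62 over all 16 arrays. Its highest values were the MES arrays (8.62 and 8.47). MP at day 4 had the next mean (8.29 and 8.04), but its arrays overlapped those of DE at day 2 (8.05 and 7.69).

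Pecam1 was high in ES (8.33 and 8.81) and in MP at day 4 (8.5 and 8.63), which overlapped. It read 7.16 and 6.95 in MP at day 2, 7.48 and 7.42 in MES, and 6.67 to 6.90 over the 8 arrays of DEP and DE. Of the 3 mesoderm groups, only the low-CD24 cells of day 4 had it at the level of ES.

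**Figure D1:**
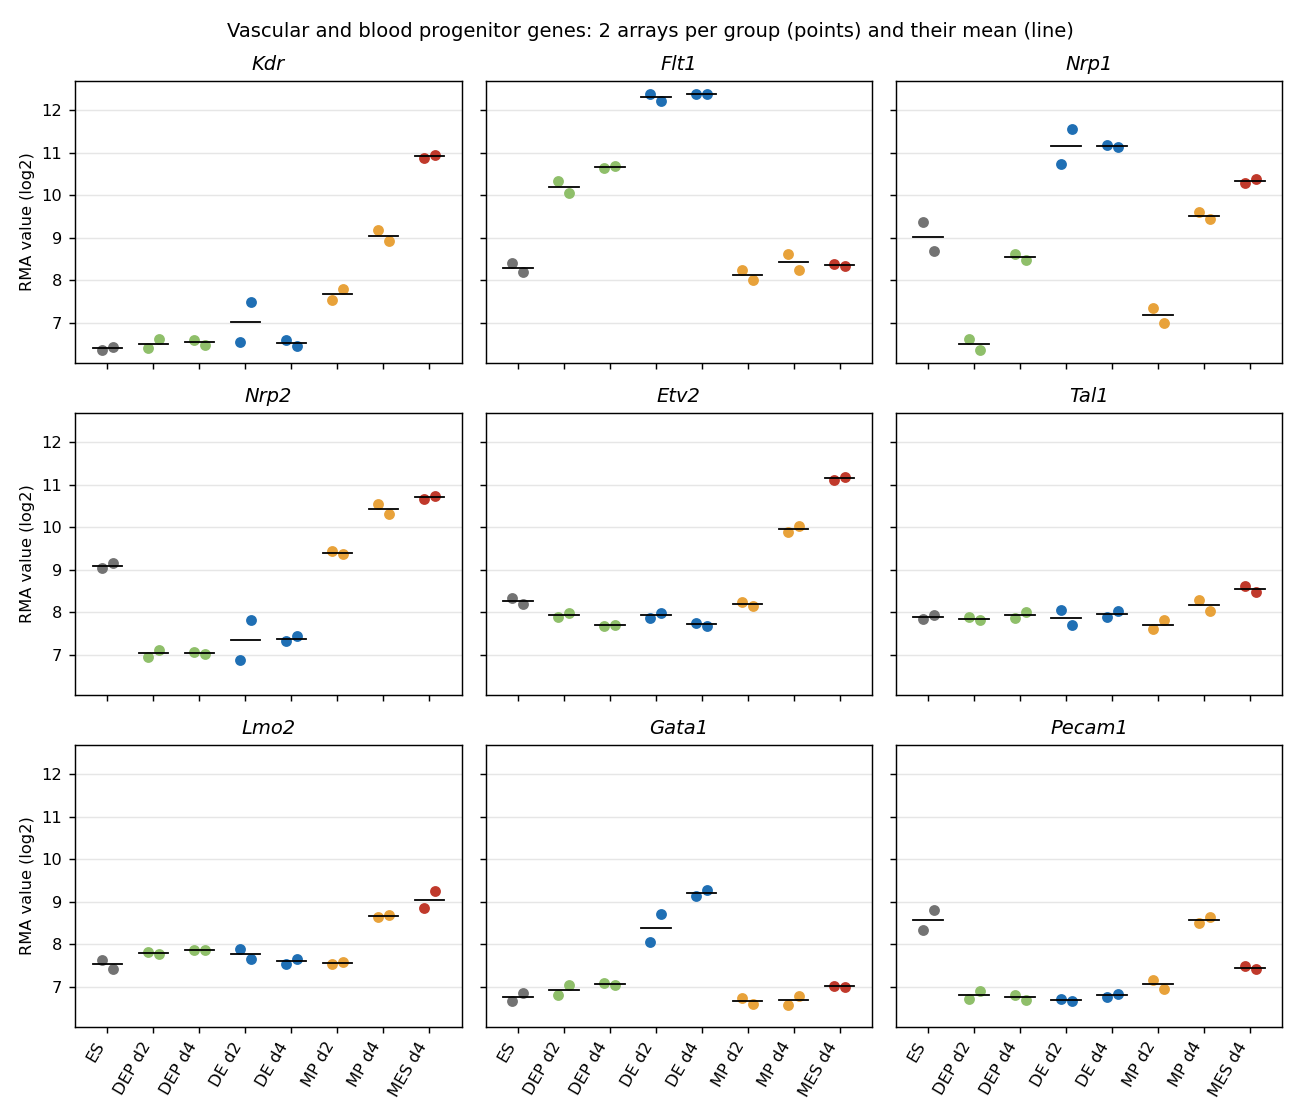
Values of the 9 genes (RMA, log2 scale, vertical axis) in the 8 groups (horizontal axis, d2 and d4 for days 2 and 4), with 1 point per array and a line at the mean of the 2 arrays. Kdr and Etv2 climb along MP d2, MP d4 and MES, reaching 10.95 and 11.19, Flt1 and Gata1 are highest in DE, and Tal1 stays between 7.59 and 8.62.

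The comparisons of the mesoderm series ask between which groups each gene differed. MES against MP at day 4, like DE against DEP, compares CD24 gates within a day. Rise and fall between gates mean higher and lower, not a course in time. A gene was called where the log2 fold change exceeded 1 in size with an adjusted p below 0.05 (limma, Benjamini-Hochberg over 32000 probe sets). From ES to MP at day 2, Kdr was the only member called higher, 2.41-fold (log2 fold change 1.27 ± 0.23 SE, adjusted p = 0.00281). Nrp1 fell by 1.85 ± 0.26 on the log2 scale (adjusted p = 0.000483) and Pecam1 by 1.51 ± 0.14 (adjusted p = 2.47e-05). The other 6 members were not called, with log2 fold changes of 0.31 for Nrp2, 0.03 for Lmo2, -0.08 for Etv2, -0.09 for Gata1, -0.17 for Flt1 and -0.18 for Tal1. Of 18716 named genes, 1.36% were called higher and 3.58% lower in this comparison. The falls of Nrp1 and Pecam1 ran beside the loss of the fibroblast genes that ES arrays held, and beside a fall of 5 of 8 pluripotency genes. The 2 ES arrays differed for both: the first had the higher fibroblast mean and the higher Nrp1, the second the higher pluripotency mean (11.89 against 11.44) and the higher Pecam1. With 2 arrays any gene is higher on 1 of them, so such a match does not link these genes to either list. The part of the feeders and of the pluripotency loss in these falls was not tested.

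From day 2 to day 4, 6 of the 9 members rose in MP and 0 fell (also 0 at an unadjusted p below 0.05), where 1.22% of the named genes were called higher and 0.513% lower. Nrp1 rose 5.08-fold (log2 fold change 2.35 ± 0.26, adjusted p = 0.00023), Etv2 3.41-fold (1.77 ± 0.09, adjusted p = 2.19e-06), Pecam1 2.85-fold (1.51 ± 0.14, adjusted p = 8.21e-05), Kdr 2.58-fold (1.37 ± 0.23, adjusted p = 0.00431) and Lmo2 2.15-fold (1.10 ± 0.13, adjusted p = 0.000371). Nrp2 was called at 1.02 ± 0.22 (adjusted p = 0.0162) but lost the call without any 1 of the 4 MP arrays, with log2 fold changes of 0.91 to 1.14. Tal1 had a log2 fold change of 0.46 (adjusted p = 0.072), Flt1 of 0.31 and Gata1 of 0.01. The median log2 fold change was 1.10 over the 9 members and 0.01 over all named genes.

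At day 4, Kdr was 3.67-fold higher in MES than in MP (log2 fold change 1.88 ± 0.23, adjusted p = 0.000733) and Etv2 2.28-fold (1.19 ± 0.09, adjusted p = 3.64e-05). Pecam1 was lower in MES by 1.12 ± 0.14 on the log2 scale (adjusted p = 0.000959). The other 6 members were not called, with differences of 0.82 for Nrp1 (95% interval 0.25 to 1.38), 0.38 each for Lmo2 and Tal1, 0.33 for Gata1, 0.27 for Nrp2 and -0.07 for Flt1. In this comparison 0.369% of the named genes were called higher and 0.807% lower. It shares the 2 MP arrays of day 4 with the comparison before it, so the rise of Pecam1 in MP and its lower value in MES rest on the same arrays. The stem cell factor receptor Kit, from the list of 11 blood surface, globin and heme genes, had the same directions in these comparisons. It was 2.24 higher at day 4 than at day 2 of MP and 1.99 lower in MES than in MP on the log2 scale. In DE the 2 genes differed: at days 2 and 4 the means were 11.57 and 11.49 for Kit and 6.69 and 6.79 for Pecam1. Over the whole series from ES to MES, Kdr was 22.9-fold higher (4.52 ± 0.23, adjusted p = 1.18e-07), Etv2 7.37-fold, Nrp2 3.05-fold, Lmo2 2.86-fold and Nrp1 2.48-fold higher. Pecam1 was 2.18-fold lower. Tal1 (0.66, adjusted p = 0.0045), Gata1 (0.25) and Flt1 (0.06) were not called. These folds are ratios of RMA values: Kdr in ES was below the array medians of 7.80 and 7.75, and no background level was analysed here, so its true ratio is not fixed by these values. The same holds for any other fold whose lower group was below its array medians. These 5 higher and 1 lower calls stand beside 2.59% of named genes called higher and 4.5% lower. Without the second ES array the log2 fold changes were 0.97 for Nrp1 and -0.88 for Pecam1, under the threshold.

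**Figure D2:**
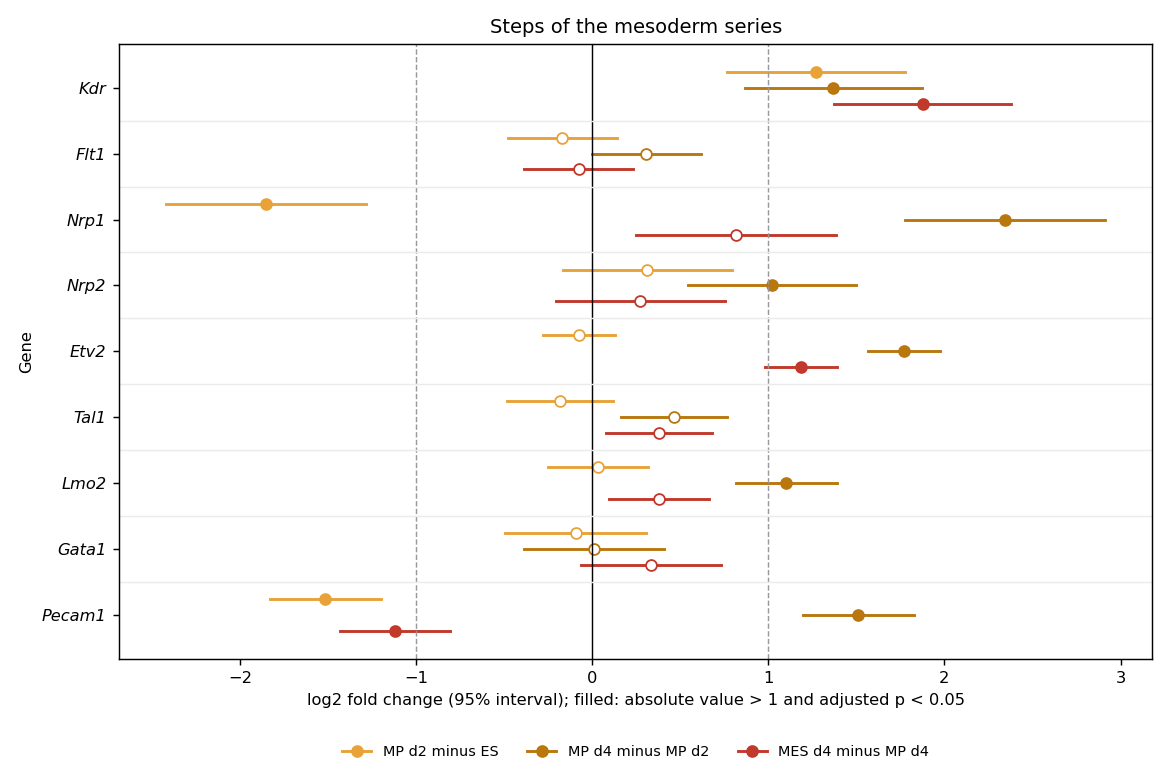
Log2 fold changes of the 9 genes (horizontal axis) with 95% intervals in 3 comparisons of the mesoderm series, with filled points where the gene was called and dashed lines at the threshold of 1. MES against MP compares CD24 gates of the same day. Kdr is filled in all 3 (1.27, 1.37 and 1.88), Etv2 in MP d4 minus MP d2 and MES minus MP d4 (1.77 and 1.19), and Flt1, Tal1 and Gata1 in none.

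Of 25 further endothelial genes, 3 rose in MP from day 2 to day 4 and 0 fell: the Ets factor Fli1 (log2 fold change 1.66), the vascular cadherin Cdh5 (1.5) and Sox7 (1.11). From MP to MES 0 of the 25 were called by limma, with 8 higher and 1 lower at an unadjusted p below 0.05. Every list gene said to rise or fall passed the same threshold as the members. Against ES, 4 of the 25 were higher in MES (Cdh5 1.90, Fli1 1.87, Sox7 1.64 and Ets1 1.19) and Cd34 was lower (-2.32). Cd34, Elk3, Eng and S1pr1 had fallen already from ES to MP at day 2, by 2.48, 2.07, 1.88 and 1.14, beside the fibroblast genes. The median of the 25 was 0.22 from day 2 to day 4 of MP and 0.02 from ES to MES, against 0.01 and 0.04 over all named genes.

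Of 12 further Vegf, angiopoietin and apelin genes, 3 rose and 1 fell from ES to MP at day 2. Apln, the ligand of the apelin receptor, rose by 3.24 and Aplnr, that receptor, by 2.33 on the log2 scale, with Cxcr4, the Cxcl12 receptor, at 1.14, and the angiopoietin receptor gene Tek fell by 1.39. Apln then fell by 1.49 from day 2 to day 4, and Cxcr4 rose by 1.08 from MP to MES. From ES to MES 4 of the 12 were higher and 0 lower (3 lower at an unadjusted p below 0.05): Aplnr (4.16), Cxcr4 (3.13), Vegfa (1.34), the ligand of Kdr and Flt1, and Apln (1.15). Of 12 semaphorin and plexin genes, Plxnd1, a plexin of endothelial cells, rose by 1.63 and Sema3a by 1.94 together with the neuropilins from day 2 to day 4 of MP, and Plxna4 and Plxna2 rose by 1.87 and 1.35 from MP to MES.

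The partners of Tal1, Lmo2 and Gata1 in blood cells were called in part. Of 17 blood transcription factors and complex partners, Gata2 and Runx1 rose by 1.06 each from day 2 to day 4 of MP. Runx1 rose by 1.16 and Zfpm1, the Gata1 cofactor Fog1, by 1.07 from MP to MES. The mean of Zfpm1 was 10.93 in MES, and it was also high in DE, at 10.32 at day 2 and 10.80 at day 4. In DEP it was 8.40 and 8.82. From ES to MES, Zfpm1 (2.56), Runx1 (1.78) and Gata2 (1.42) were higher and Myb (-1.96) lower. Of 11 blood surface, globin and heme genes, 0 were called higher in MES than in ES by limma (3 at an unadjusted p below 0.05) and 1, Cd44, was lower (-2.54). The embryonic globin Hbb-bh1 stayed between 4.90 and 5.28 on all 16 arrays, and Ptprc, the pan-leukocyte surface gene, between 5.83 and 6.25. Genes of lateral and extraembryonic mesoderm were called more widely, with 13 of 19 higher in MES than in ES, among them Foxf1 (5.62), Hand1 (4.52) and Msx2 (3.81).

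The comparison of endoderm and mesoderm progenitors asks which members separated the lineages under the same CD24 gate. Averaged over both days, Flt1 was 4.45-fold higher in DEP than in MP (log2 fold change 2.16 ± 0.10, adjusted p = 1.67e-07). Nrp2 was 7.35-fold lower (-2.88 ± 0.15, adjusted p = 4.1e-07), Kdr 3.58-fold lower (-1.84 ± 0.16, adjusted p = 1.69e-05), Etv2 2.4-fold lower (-1.26 ± 0.07, adjusted p = 3.61e-07) and Pecam1 2.05-fold lower (-1.04 ± 0.10, adjusted p = 3.58e-05). Nrp1 had a log2 fold change of -0.83, and Lmo2, Gata1 and Tal1 of -0.28, 0.32 and -0.04, not called. In DEP, the means of Nrp2, Kdr and Pecam1 (7.04, 6.52 and 6.77) were below the array medians of 7.75 to 7.80, so their true ratios are not fixed. Against these 1 higher and 4 lower members, 0.999% of named genes were higher and 0.983% lower. Pecam1 lost its call without the first DEP or the first MP array of day 2 (log2 fold change -0.99 in both).

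The days differed. At day 2, Flt1 was already higher in DEP (2.07) and Nrp2 and Kdr lower (-2.37 and -1.17), while Etv2 and Pecam1 stood at -0.25 each, Nrp1 at -0.68, Gata1 at 0.25, Lmo2 at 0.23 and Tal1 at 0.15 and were not called. At day 4, Flt1 was at 2.24, and Nrp2 (-3.39), Kdr (-2.51), Etv2 (-2.27) and Pecam1 (-1.82) were lower in DEP. Nrp1 (-0.97), Lmo2 (-0.80), Gata1 (0.38) and Tal1 (-0.23) were not called. The shares called were 0.647% higher and 0.54% lower of the named genes at day 2, and 1.77% higher and 1.78% lower at day 4. Tested as a change of the lineage difference from day 2 to day 4, Etv2 (-2.02 ± 0.13, adjusted p = 3.44e-05), Pecam1 (-1.56 ± 0.20, adjusted p = 0.00191) and Lmo2 (-1.03 ± 0.18, adjusted p = 0.0124) passed, beside 0.908% of named genes in that direction and 0.657% in the other. Lmo2 missed the threshold without the first DEP array of day 2, the second DEP array of day 4 or the first MP array of day 2, with adjusted p of 0.0565, 0.0511 and 0.0549. Kdr had a change of -1.34 (adjusted p = 0.0664) and Nrp2 of -1.01 (adjusted p = 0.162), so that a widening of their difference with the day was not shown by this test. Flt1 had a change of 0.16 (95% interval -0.28 to 0.60), Gata1 of 0.13, Nrp1 of -0.29 and Tal1 of -0.38, not called.

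Between the day 4 end points, DE and MES, 6 of the 9 members were called. Flt1 was 16.3-fold higher in DE (log2 fold change 4.03 ± 0.14, adjusted p = 6.52e-09) and Gata1 4.59-fold higher (2.20 ± 0.18, adjusted p = 4.12e-06). Kdr was 20.9-fold lower (-4.39 ± 0.23, adjusted p = 1.1e-07), Etv2 10.8-fold lower (-3.43 ± 0.09, adjusted p = 1.93e-09), Lmo2 2.73-fold lower (-1.45 ± 0.13, adjusted p = 7.84e-06), and Nrp2 had a log2 fold change of -3.32 ± 0.22 (adjusted p = 6.5e-07). The lower side of some of these folds was below the array medians. Kdr in DE was at 6.53 (medians 7.73 and 7.74) and Gata1 in MES at 7.01 (medians 7.79 and 7.78). Their true ratios are therefore not fixed by these values. The shares of named genes were 4.26% higher and 3.61% lower. Nrp1 (0.82, adjusted p = 0.0449), Pecam1 (-0.65, adjusted p = 0.0063) and Tal1 (-0.58, adjusted p = 0.00969) had adjusted p below 0.05 with differences under the size threshold. Lineage markers mostly stood apart on these arrays: 7 of 8 endoderm markers were higher in DE and 7 of 8 mesoderm markers lower. Lefty2 was the mesoderm marker that was higher in DE (3.85).

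**Figure D3:**
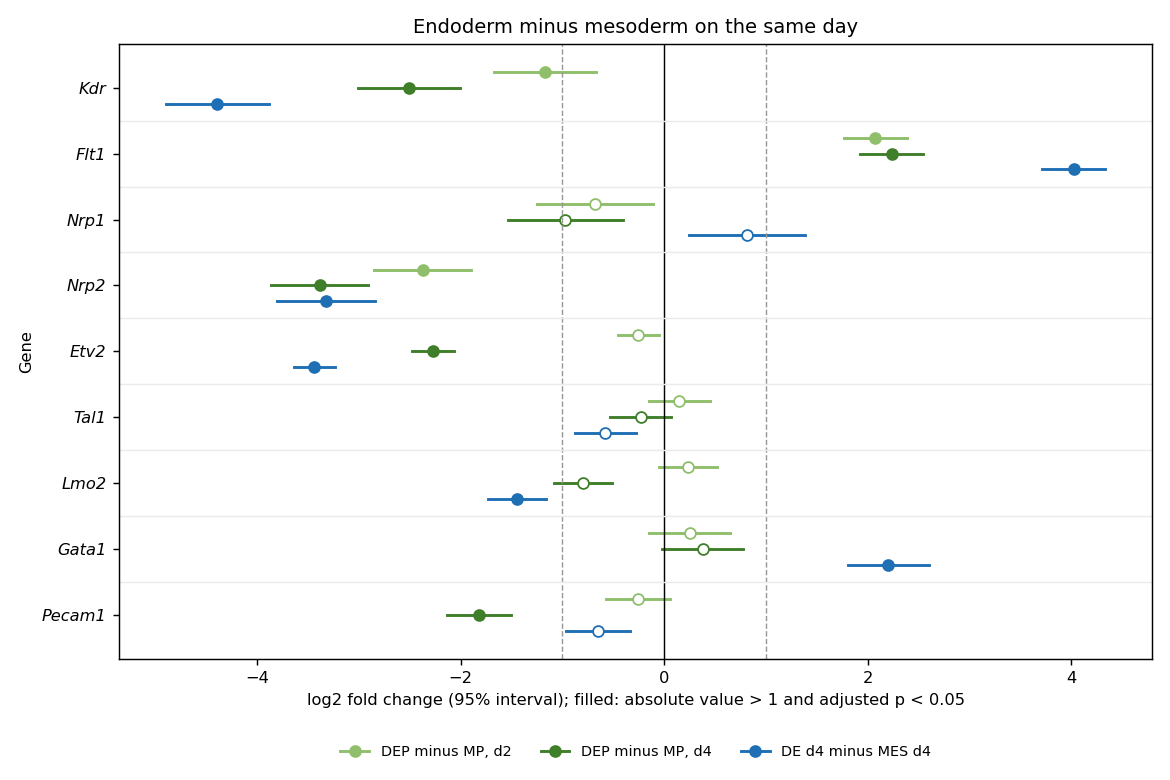
Log2 fold changes of the 9 genes (horizontal axis) with 95% intervals for DEP minus MP at days 2 and 4 and for DE minus MES at day 4, with filled points where the gene was called. Flt1 is right of 0 in all 3 (2.07, 2.24 and 4.03), Kdr and Nrp2 are left of 0 in all 3, and Gata1 is filled for DE minus MES (2.20).

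Of the 25 endothelial genes, 6 were called lower in DE than in MES, as Kdr and Etv2 were, and 0 higher by limma (12 lower and 2 higher at an unadjusted p below 0.05). The 6 were led by Fli1 (-2.11), Cdh5 (-1.87), Eng (-1.77) and Sox7 (-1.56), with a median of -0.29 over the list and 0.02 over all named genes. Between DEP and MP, 2 were lower (Cdh5 and Ets1, -1.08 each) and 0 higher by limma (10 lower and 0 higher at an unadjusted p below 0.05). Among the Vegf, angiopoietin and apelin genes, Aplnr (-3.70) and Apln (-1.29) were lower in DE than in MES, while Angpt2 (1.5) and Cxcr4 (1.30), a known surface marker of endoderm, were higher. The neuropilin partner Plxnd1 was lower in DE (-1.81), as was Sema3e (-1.16).

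The blood regulators were called in both directions. In DE, Hhex (3.13), Mecom (1.65) and Runx1 (1.36) were higher than in MES and Gata2 was lower (-1.60). Hhex is also a gene of anterior endoderm. Kit was 2.69 higher in DE than in MES. In DEP, Ikzf1 (3.04) and Myb (1.24) were higher than in MP. Markers of trophoblast, an epithelium outside the gates that carries other Gata factors, were read beside Gata1. Of 6 tested, 3 were higher in DE than in MES and 1 lower, and their mean was 7.91 to 8.47 over the 4 DE arrays and 7.62 and 7.69 on the MES arrays. On the MP arrays of day 4 that mean was 7.96 and 7.90, with Gata1 at 6.57 and 6.78. Elf5, another of the 6, was between 6.08 and 6.72 on all 16 arrays. The part of such cells in the Gata1 values was not tested.

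**Figure D4:**
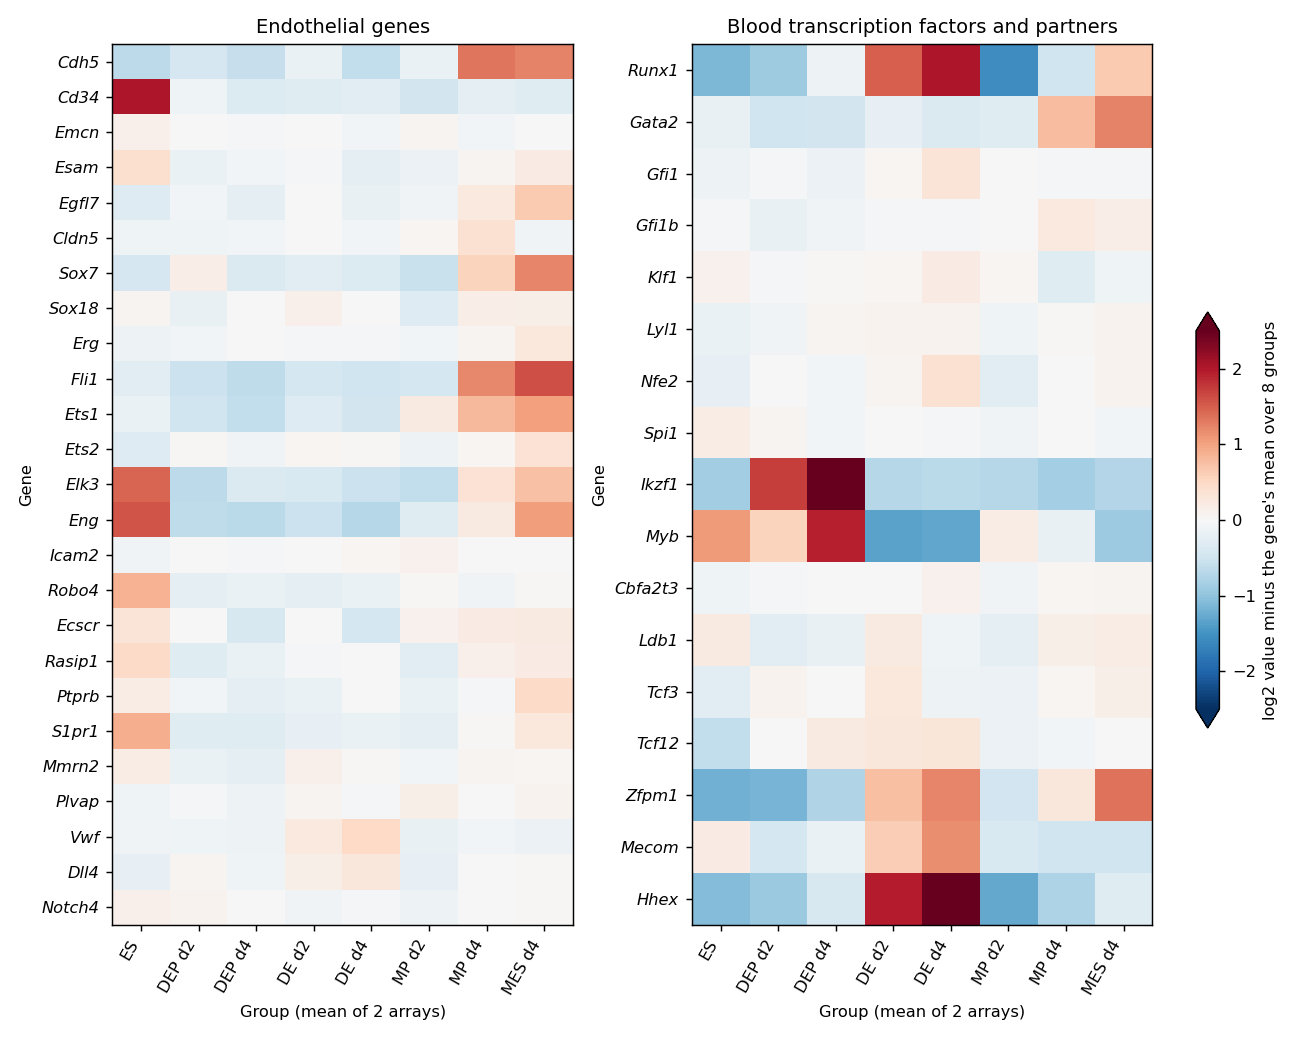
Mean log2 value of each gene in each group (columns, 2 arrays each) after subtracting the gene's mean over the 8 groups, for 25 endothelial genes (left) and 17 blood transcription factors and partners (right), with red above and blue below that mean. Cdh5 and Fli1 are red in MP d4 and MES, Cd34 is red in ES alone, and Runx1 and Hhex are darkest in DE.

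In the endoderm series, the question was whether these genes differed between ES and DEP and between the CD24 gates of DEP and DE. Against ES, Flt1 was 4.4-fold higher in DEP over both days (log2 fold change 2.14 ± 0.12, adjusted p = 3.14e-07). Nrp2 was lower by 2.05 ± 0.19 (-2.05, adjusted p = 1.39e-05), as was Pecam1 (-1.80 ± 0.12, adjusted p = 1.5e-06). Nrp1 was called at -1.5 over both days (adjusted p = 0.000562), with -2.53 at day 2 and -0.47 at day 4, the latter not called. Etv2 was at -0.45 (adjusted p = 0.00195), Lmo2 at 0.30, Gata1 at 0.23, Kdr at 0.12 and Tal1 at 0.01, not called. The share of named genes was 1.84% higher and 3.3% lower. As for MP, the fibroblast list fell against ES, here in 11 of its 13 genes, and the comparisons with ES share the same 2 ES arrays. With either ES array left out, Nrp1 ranged from -1.84 to -1.16, Nrp2 from -2.11 to -1.99 and Pecam1 from -2.04 to -1.55.

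In DE against DEP, 3 members were higher and 0 lower (also 0 at an unadjusted p below 0.05), beside 2.2% of named genes higher and 2.47% lower. Nrp1 was 12.4-fold higher (log2 fold change 3.63 ± 0.18, adjusted p = 8.99e-08), Flt1 3.76-fold (1.91 ± 0.10, adjusted p = 1.17e-07) and Gata1 3.5-fold (1.81 ± 0.13, adjusted p = 1.2e-06). Nrp1 in DEP at day 2 (6.49) and Gata1 in DEP (6.92 and 7.06) were below the array medians of 7.75 to 7.80. The true ratios of these 2 genes are therefore not fixed. Within days, Nrp1 was at 4.66 at day 2 and 2.60 at day 4, Flt1 at 2.10 and 1.71, and Gata1 at 1.47 and 2.15, all called. Without the second DE array of day 2 the values over both days were 3.42 for Nrp1, 1.95 for Flt1 and 1.64 for Gata1. Without the first they were 3.84, 1.87 and 1.98. Kdr stood at 0.26 (adjusted p = 0.338), at 0.02 without the second DE array of day 2 and at 0.49 without the first. Etv2 was at 0.00 (95% interval -0.14 to 0.15), Nrp2 at 0.32, Tal1 at 0.03, Pecam1 at -0.03 and Lmo2 at -0.14, not called. Nrp2 also depended on the DE arrays of day 2, with 0.09 without the second and 0.55 without the first. Of the 25 endothelial genes, 0 were called between DEP and DE by limma, with 4 higher and 0 lower at an unadjusted p below 0.05.

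Several Vegf and blood genes also differed between these gates. Vegfa was higher by 1.13 and Cxcr4 by 3.20 on the log2 scale in DE than in DEP, and Apln was lower by 1.21. Vegfa was 9.34 and 9.68 in ES and 11.68 and 11.61 in DE at day 4, the group in which Flt1 was also high. Of the 17 blood regulators, 4 rose and 2 fell, led by Hhex (3.06), Ikzf1 (-2.94), Myb (-2.57) and Runx1 (2.26). Kit rose by 1.82. Among semaphorins and plexins, Sema3e (-2.56) and Sema3c (-1.56) fell while Plxna4 (1.31) and Plxna2 (1.24) rose.

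The genes whose values most resembled each member were found by Pearson r over the 16 arrays, which share 2 lineages and 2 replicates a group, so that r is a description of these arrays. Kdr was most like Fgf3 (0.981), Klhl6 (0.980) and Hoxb1 (0.976). Etv2 was most like Fli1 (0.980), Gata2 (0.978) and Hspa12a (0.977), of which Fli1 and Gata2 were on the lists used here. Lmo2 was nearest to Hapln1 (0.961), Daam2 (0.949) and Limch1 (0.945), and Nrp2 to Wnt5a (0.973), Peg10 (0.970) and Serpinb9 (0.959). On the endoderm side, Flt1 was nearest to Foxq1 (0.988), Lrig3 (0.988) and the keratin Krt7 (0.982), and Gata1 to Prkch (0.981), Prss12 (0.980) and Arhgap6 (0.980). Nrp1 was nearest to Kitl (0.969), the ligand of Kit, Cdh2 (0.942) and Nuak1 (0.931), and Pecam1 to Six4 (0.943), Tvp23a (0.936) and Anxa3 (0.932). Among the members themselves, Kdr and Etv2 had r = 0.960, Etv2 and Lmo2 0.927, Kdr and Lmo2 0.894 and Flt1 and Gata1 0.858, whereas Flt1 and Nrp2 had r = -0.810, Kdr and Flt1 -0.518 and Nrp1 and Nrp2 0.097.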

How the data were processed

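RNA of 16 samples was hybridised to Affymetrix Mouse Gene ST 1.0 arrays. The values are log2 intensities of 35556 probe sets per array, as deposited by the authors after RMA normalisation of all arrays in oligo 1.48.0. Arrays were thereby brought to a common distribution, so a change of total RNA is not visible and differences of low genes are compressed. Depth does not apply, and the 2 arrays per group limit the precision. All arrays were placed by their labels. Here limma 3.58.1 (R 4.3.3) was run on the 32000 probe sets whose mean was highest, with 1 mean per group and eBayes without trend. The fit was tested on simulated data. Genes were named from single-symbol probe sets of the platform annotation (18716 in the fit). Calls needed an adjusted p below 0.05 (Benjamini-Hochberg, 32000 probe sets per comparison) and a log2 fold change beyond 1 in size.

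All 9 members are named in every comparison. Of each other list described in a comparison up to 4 called genes are named, those of largest change, and for each member called at least once the 3 genes of highest r. Hbb-bh1, Ptprc, Elf5, the Cdh5 values by array, Lefty2, the Zfpm1 levels and the Vegfa levels were added after values were seen. Members and lists were chosen with earlier results of these data known. Alternatives were other numbers of probe sets, moderation, tests and days, a replicate block, and leaving out each array. The transcription factor T, scanner files and proteins were not analysed here.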

Additional observations from a re-analysis of the deposited data

Results flagged for a closer look

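For 3 of the 9 genes the difference between DEP and MP changed from day 2 to day 4 by a test of the change itself, the interaction contrast of the limma fit. The change was -2.02 for Etv2 (adjusted p = 3.44e-05), -1.56 for Pecam1 (adjusted p = 0.00191) and -1.03 for Lmo2 (adjusted p = 0.0124), on the log2 scale. The day 4 difference itself was -2.27 for Etv2, -1.82 for Pecam1 and -0.80 for Lmo2, the last under the size threshold. Groups of 2 arrays were too small for a search for outlying samples.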

How the results depend on the processing

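No called value of the 9 genes reversed. The count of members called moved by over 1.5 times in these cases, main value first. With the 16000 probe sets of highest mean, which hold neither Kdr, Gata1 nor Pecam1, it went from 3 to 1 for MP at day 2 against ES, from 3 to 1 for MES against MP, and from 5 to 3 for DEP against MP. With limma's treat test against a fold threshold, which asks for more than the call rule, it went from 3 to 0, from 3 to 0 and from 5 to 3 in the same comparisons, from 6 to 2 for MP at day 4 against day 2, from 6 to 3 for MES against ES, and from 3 to 1 for the change of the DEP and MP difference with the day. Fitted on only the groups compared, that last count was 5, with Kdr (adjusted p = 0.0179) and Nrp2 (adjusted p = 0.0211) added, and the cause was not tested. Smaller moves under treat were 6 to 5 for DE against MES, without Lmo2, and 4 to 3 for DEP against ES, without Nrp1, and with the adjusted p alone DE against MES went from 6 to 9. On day 2 arrays alone, DEP against MP gave 3, without Etv2 and Pecam1. With any 1 array left out, the counts were 3 to 3 for MP at day 2 against ES, 5 to 5 for MP day 4 against day 2 (6 with all arrays), 3 to 3 for MES against MP, 4 to 6 for MES against ES, 4 to 5 for DEP against MP, 2 to 3 for its change with the day, 6 to 6 for DE against MES, 4 to 4 for DEP against ES and 3 to 3 for DE against DEP. Across comparisons, named genes called numbered 220 to 1472, and 168 to 1148 with 16000 probe sets, 17 to 665 with treat, 466 to 5139 with the adjusted p alone, 222 to 887 on day 2 arrays and 665 to 1190 on day 4 arrays. Deviations of same-numbered arrays had r of -0.204 to 0.246 over 28 pairs of groups, above 0.1 in 8. Whether the numbers mark pairs was not tested, and the main fit did not pair them. With a replicate block 221 to 1475 named genes were called and all 81 member values stayed on their side of the threshold (counts 3, 6, 3, 6, 5, 3, 6, 4 and 3 in the order above).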
